A study of Homo sapiens with 4 samples.

Results

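The cytosolic ribosomal protein genes were examined in A549 cells, a human lung adenocarcinoma line, after knockdown of the long noncoding RNA USP2-AS1. Members were the protein-coding genes of the deposited table whose symbol names a ribosomal protein of the large (RPL) or small (RPS) subunit, including RPSA and RPLP0 to RPLP2 by the rule, with RPS27L and the RPS6 kinases left out. This gave 30 of the 6828 listed genes, 19 for the 60S subunit and 11 for the 40S subunit. Of these, 28 encode core ribosomal proteins and 2, RPL39L and RPL7L1, encode paralogs. The comparison asks which transcripts respond to loss of USP2-AS1.

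The control group, shctrl, had 2 libraries from A549 cells infected with a lentivirus expressing a control short hairpin RNA (shRNA). The knockdown group, shUSP2-AS1, had 2 libraries from A549 cells infected with a USP2-AS1 shRNA lentivirus. Both groups carry a virus and a hairpin, and RNA was taken 72 h after infection. The labels name a single knockdown condition and do not say which USP2-AS1 hairpin it used, so an effect of the hairpin and an effect of the lost RNA cannot be told apart. With 2 libraries per group, p-values reflect no spread beyond that between these libraries. The test also draws the variance of each gene towards that of other listed genes of similar abundance. Standard errors and p-values are therefore not those of the gene alone.

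The table lists only genes whose adjusted p-value in the authors' own comparison was below 0.05. Being listed was thus itself decided by the contrast studied here. The adjusted p-values given below come from the same libraries and from listed genes alone. Passing the threshold was therefore nearly fixed in advance, and these p-values give no independent support. Of 80 core ribosomal proteins, 30 were listed, 28 of them members. By subunit, 18 of 47 genes of the large subunit and 12 of 33 of the small subunit were listed. The other 50 have no values here, and nothing can be said of their direction. Among them are RPLP0, RPLP1 and RPLP2, which form the stalk of the large subunit, RPSA, RPS6, a substrate of S6 kinase, and RPL5, the partner of RPL11.

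Ribosomal proteins are made in nearly equal amounts and assembled on ribosomal RNA in the nucleolus. Their messengers are among the most abundant of a growing cell. Most begin with a 5′ terminal oligopyrimidine (TOP) tract, a C followed by a run of pyrimidines, through which mTORC1 and the RNA-binding protein LARP1 control their translation and stability. Because the messengers of both subunits share this control, they often move together. Paralogs such as RPL39L and RPL7L1 are less abundant and fill tissue- or assembly-specific roles.

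The knockdown was visible in the libraries themselves. The control libraries held 24 and 22 reads of USP2-AS1 and the knockdown libraries 2 and 7, a log2 fold change of −2.39 (SE 0.56, limma adjusted p = 0.000597). Reads on the listed genes summed to between 10772788 and 14120472 per library, which is not the whole depth of the libraries. The epithelial keratins KRT8, KRT18 and KRT7, which mark the A549 line, were abundant in all 4 libraries, as was AKR1B10, and EPCAM and AKR1C1 were not listed. KRT8 had normalized read counts of 87504 and 79777 in shctrl and 48220 and 49976 in shUSP2-AS1, and KRT18 had 30473 and 29565 against 14145 and 14811. KRT7 was also lower, with 57568 and 55535 against 38282 and 42083. AKR1B10 went the other way, with 56300 and 55365 against 68165 and 65790. The part of these differences in the ribosomal protein result was not tested. In bulk RNA, fewer cells of a type and less RNA per cell cannot be told apart.

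The starts of some members, 3 higher and 3 lower in the knockdown, are shown first, because the TOP tract is the sequence that most of these genes share. Each stretch is 30 bases of the coding strand in GRCh38.p14 from RefSeq, 10 before and 20 from the annotated start, with the TOP tract in capitals where one was found. The first 3 genes are higher in the knockdown and the last 3 are lower.
RPS19, chr19:41860245-41860274, plus strand: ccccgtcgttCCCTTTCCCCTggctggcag
RPS12, chr6:132814559-132814588, plus strand: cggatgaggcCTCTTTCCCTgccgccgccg
RPL13A, chr19:49487598-49487627, plus strand: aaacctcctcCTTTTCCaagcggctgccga
RPS9, chr19:54200848-54200877, plus strand: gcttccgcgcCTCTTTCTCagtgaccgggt
RPS26, chr12:56041908-56041937, plus strand: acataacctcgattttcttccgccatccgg
RPL7L1, chr6:42879606-42879635, plus strand: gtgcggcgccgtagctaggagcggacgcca

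RPS19, RPS12, RPL13A and RPS9 open exactly at the start shown with a C and a run of pyrimidines, whereas RPS26 and RPL7L1 had no such tract within 5 bases of it. RPS19 has another RefSeq start, at chr19:41860394-41860423 and not shown, where a run of 5 bases begins 5 bases before the start. In RPS26 a match begins 6 bases after the start, just outside this window. Over the 26 members with an entry in the promoter table, 21 had a C followed by at least 4 pyrimidines that began within 5 bases of a RefSeq start, or 80.8%. The same was found for 25.2% of 27303 genes. It was found for 86.8% of the core genes that the table does not list (33 of 38 with an entry), so that the tract did not set the listed members apart from the rest of the family. Among members higher in the knockdown 20 of 22 had it, and among those lower 1 of 4, RPS9, or 2 of 4 if RPS26 is counted. Matches beyond the window were looked for in the lower members only, so the wider count has no counterpart among the higher ones. RPL39L, RPL37, RPS15A and RPL8 had no entry.

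Most of the listed ribosomal protein messengers were slightly more abundant after USP2-AS1 knockdown. Of the 30 members, 24 were higher in shUSP2-AS1 and 6 were lower at a limma adjusted p below 0.05. The higher members rose by 1.10- to 1.29-fold, and their median log2 fold change was 0.21. Of all 6812 genes tested, 50.6% were higher and 49.4% lower at the same threshold, since almost every listed gene passed it. By subunit, 15 of 19 large-subunit members and 9 of 11 small-subunit members were higher, with median log2 fold changes of 0.18 and 0.20.

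The median log2 fold change of the members was 0.19, the same to 2 decimals as that of all genes tested, 0.19. The genes tested split almost evenly by sign, so their median was unstable and is a poor reference. With at least 10 reads required in every library it was −0.1625 over 6583 genes, while that of the members stayed at 0.19. The members ran from −1.35 to 0.37, with the 24 higher ones between 0.14 and 0.37, and the genes tested ran from −5.00 to 5.52. Abundance gave 2 different comparisons. Among other genes with a mean normalized count of at least 1000, 49.3% were higher and the median was −0.17. Among those with a mean of at least 5000, 60.6% were higher and the median was 0.27. Across the 26 core members with a mean of at least 1000, the log2 fold change had no clear relation to the mean count (r = 0.03, rho = −0.08) or to the deposited gene length (r = 0.14, rho = 0.13). These are correlations across genes of the same 4 libraries, which are not independent.

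The largest rise was in RPS19 (ENSG00000105372, chr19:41860255-41872925, plus strand), a small-subunit protein needed for maturation of 18S rRNA and the gene most often mutated in Diamond-Blackfan anaemia. Its normalized read counts were 35014 and 31353 in shctrl and 41106 and 44351 in shUSP2-AS1. Both knockdown libraries were above both control libraries, and the log2 fold change was 0.37 (SE 0.06, adjusted p = 1.94e-05).

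RPS12, a small-subunit protein at the beak of the subunit, had 7502 and 7002 against 8690 and 9554 normalized reads, a log2 fold change of 0.33 (SE 0.06, adjusted p = 2.27e-05). RPS15A, also of the small subunit, had 1261 and 1182 against 1452 and 1602, a log2 fold change of 0.32. Neither gene overlapped between groups, and in both the second knockdown library was the highest of the 4.

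RPL34, a large-subunit protein, had 2837 and 2470 normalized reads in shctrl and 3141 and 3372 in shUSP2-AS1, with a log2 fold change of 0.30. RPS29, a small zinc-binding protein of the 40S subunit, had 1917 and 1721 against 2210 and 2194, a log2 fold change of 0.28. RPS29 was the only member higher in the first than in the second knockdown library.

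RPL28 had 14041 and 15803 normalized reads in shctrl and 17126 and 18657 in shUSP2-AS1, with a log2 fold change of 0.26. RPS27, a zinc-binding protein of the 40S subunit, had 5809 and 5251 against 6341 and 6879, also 0.26. RPL15, a large-subunit protein whose gene is mutated in some cases of Diamond-Blackfan anaemia, had 16525 and 15232 against 18273 and 19220, a log2 fold change of 0.24. In RPL28 the second control library was the higher of the 2, the reverse of RPS27 and RPL15.

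RPL11 binds MDM2 together with RPL5 and 5S rRNA and so links ribosome assembly to p53. It had 7384 and 6860 normalized reads in shctrl and 8075 and 8412 in shUSP2-AS1, with a log2 fold change of 0.21 (SE 0.05, adjusted p = 0.00076). RPL24, another large-subunit protein, had 6482 and 6197 against 6792 and 7254, with a log2 fold change of 0.15. The remaining higher members, RPL10, RPL12, RPL13A, RPL27A, RPL31, RPL32, RPL35, RPL36, RPL37, RPL4, RPS13, RPS24, RPS28 and RPS3A, had log2 fold changes of 0.14 to 0.23. Reads from RPL10 may include those of its neighbour, since 35.9% of its exon bases overlap DNASE1L1 on the opposite strand and the use of strand in counting is not stated. The same applies to RPS28, 17.2% of whose exon bases overlap KANK3, and to RPS3A, 11.5% of whose exon bases overlap SH3D19 (24.1% of its canonical transcript). RPL36 shares 17.6% of its exon bases with HSD11B1L on the same strand, though none of its canonical transcript.

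Compared per kilobase of the deposited gene length, the most abundant members were RPL13A (20459 normalized reads per kb, mean of 4 libraries), RPL8 (13805), RPS12 (12812), RPS19 (10967) and RPL4 (6951). The deposited length exceeds that of the canonical transcript to differing degrees (RPS24, 7829 against 534 bases, RPS12, 639 against 503). The order therefore depends on the length used. RPL13A, a large-subunit protein that also acts in interferon-induced translational silencing, had 45438 and 43773 normalized reads in shctrl and 51213 and 53447 in shUSP2-AS1 (log2 fold change 0.23, adjusted p = 0.000532). RPL4, which has a long extension into the exit tunnel, had 37453 and 36697 against 39322 and 42474 (log2 fold change 0.14, adjusted p = 0.0186). RPL4 had the smallest rise of the 24 and RPL8, described below with the lower members, moved the other way.

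**Figure D1:**
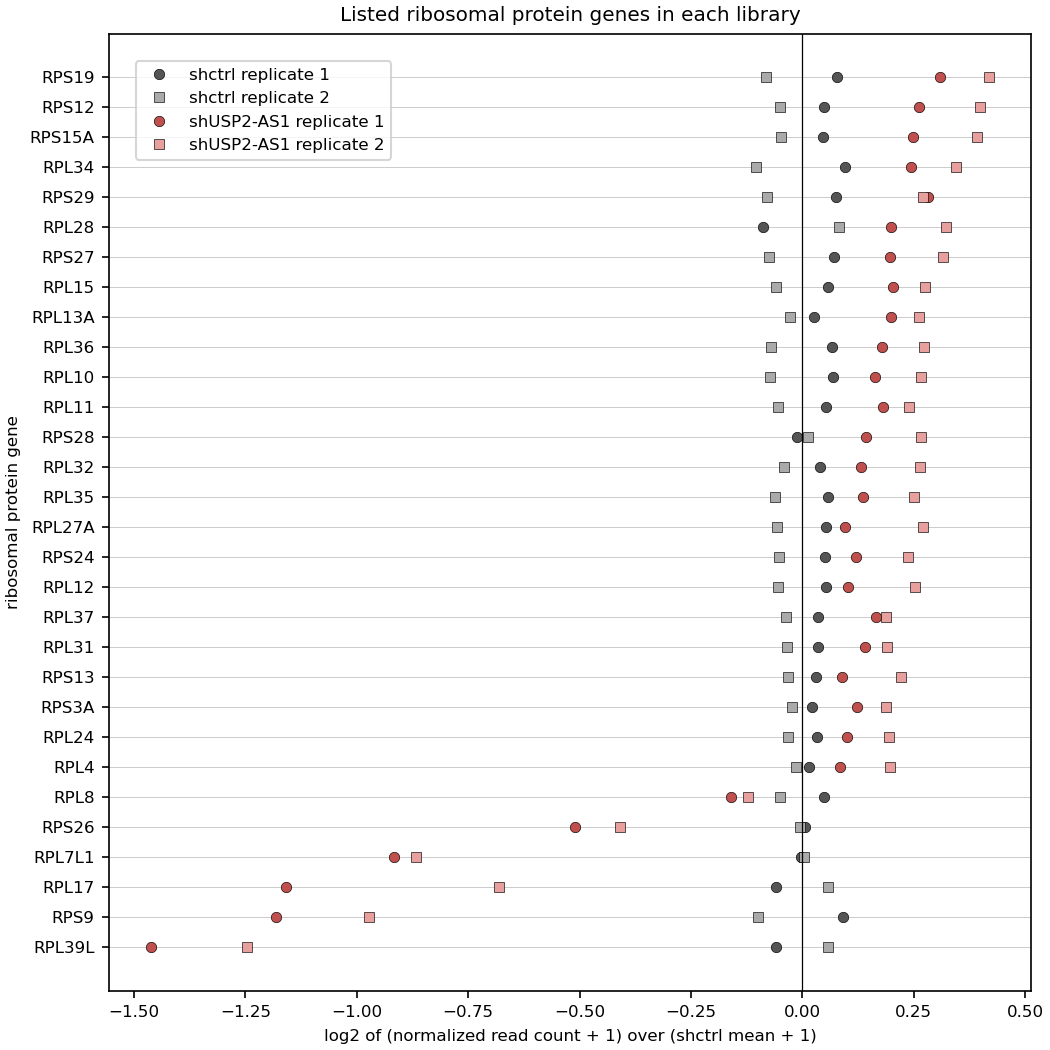
Each row is 1 of the 30 ribosomal protein genes, ordered by log2 fold change, and each point is 1 library (grey, shctrl; red, shUSP2-AS1; circles, replicate 1; squares, replicate 2). The x axis is the log2 ratio of the normalized read count + 1 to the shctrl mean + 1. The 24 genes from RPL4 upwards have both knockdown libraries to the right of both control libraries, and the 6 genes from RPL8 downwards have them to the left.

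All 30 members kept the 2 groups apart, but so did 100% of the genes tested (6811 of 6812), so this separation was no property of the family. For each of the 24 higher and 6 lower members the log2 fold change was larger than the difference between the replicates of either group, and this held for 99.7% of all genes tested.

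The replicates of these genes nevertheless moved as a block. The first shctrl library was above the second in 25 of 30 members, compared with 50.2% of all genes tested. In shUSP2-AS1 the second library was above the first in 29 of 30 members, compared with 54.0% of all genes. The median signed difference, first minus second in shctrl and second minus first in shUSP2-AS1, was 0.10 and 0.11 log2 units over the members. Over all genes tested it was 0.0005 and 0.0117, because those genes went both ways. Without the sign, replicates of the median gene tested differed by 0.0865 and 0.0839 log2 units, and those of the median member by 0.104 and 0.110.

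Summarised per library, the median deviation of the members from their own mean over the 4 libraries was −0.05 and −0.14 in shctrl and 0.04 and 0.15 in shUSP2-AS1. The corresponding values over all genes tested were −0.05, −0.07, 0.05 and 0.07. The nearest libraries of the 2 groups were thus 0.092 log2 units apart for the members, while the replicates were 0.0915 apart in shctrl and 0.104 in shUSP2-AS1 by the same medians. The gap between the groups was thus about as wide as the distance between replicates. The median member was 0.10 higher in the first knockdown library than in the first control library, and 0.29 higher in the second than in the second. Among the 2589 other genes with a mean normalized count of at least 1000, the median gene was 0.12 lower in both comparisons. The medians over all genes tested, which went both ways, are therefore no shift shared by all genes.

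**Figure D2:**
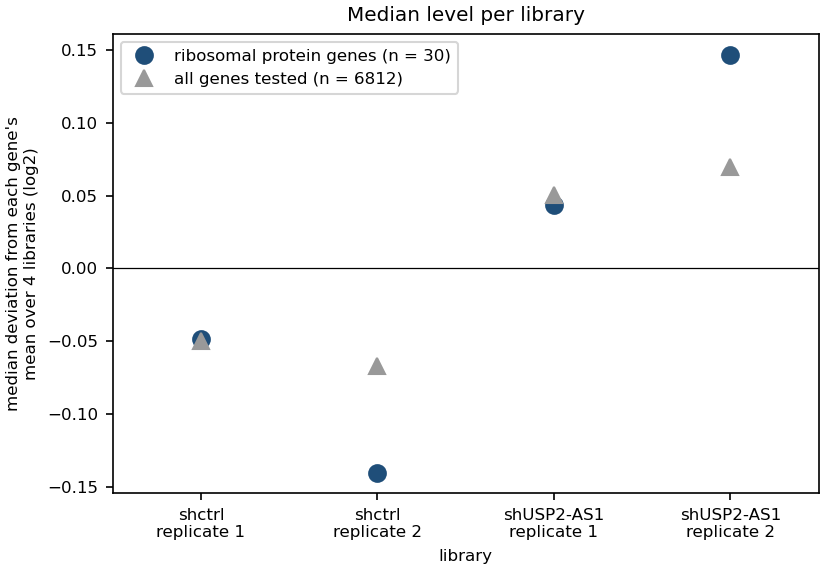
For each library (x axis), the median over the 30 ribosomal protein genes (blue circles) and over the 6812 genes tested (grey triangles) of the deviation of a gene from its mean over the 4 libraries, in log2 units (y axis). The ribosomal protein genes spread from −0.14 to 0.15, and their medians in replicate libraries lie farther apart than those of all genes.

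As a share of the normalized reads of all listed genes, the members took 2.73% and 2.60% in shctrl and 2.81% and 2.98% in shUSP2-AS1. The means were 2.67% ± 0.0906 and 2.89% ± 0.117 (SD, n = 2 each). Both knockdown libraries were above both control libraries, with a difference of 0.228 percentage points and an exact two-sided permutation p of 0.333, the smallest that 2 against 2 libraries can give.

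Rises of this size depend on how the libraries are scaled. Trimmed mean of M values (TMM) and upper quartile scaling of the reads recovered from the table both left the 24 higher members past the threshold. Scaling to the reads of all other listed genes left 21, and relative log expression (RLE) scaling over the listed genes left 9. Shares of all genes passing under these scalings are not reported here. A loss in the family therefore cannot be told from a loss across all listed genes. Under RLE the median of all genes tested moved by −0.12 and that of the members from 0.19 to 0.07. The sign of each of the 30 members was the same under all 4 scalings. A scaling shifts all genes nearly alike, here by less than the smallest change of a member, so no sign could differ. The 9 genes still higher under RLE were RPS19, RPS12, RPS15A, RPL34, RPS29, RPL28, RPS27, RPL15 and RPL13A. Without the second shUSP2-AS1 library 14 of the 24 passed, and without the second shctrl library 18.

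**Figure D3:**
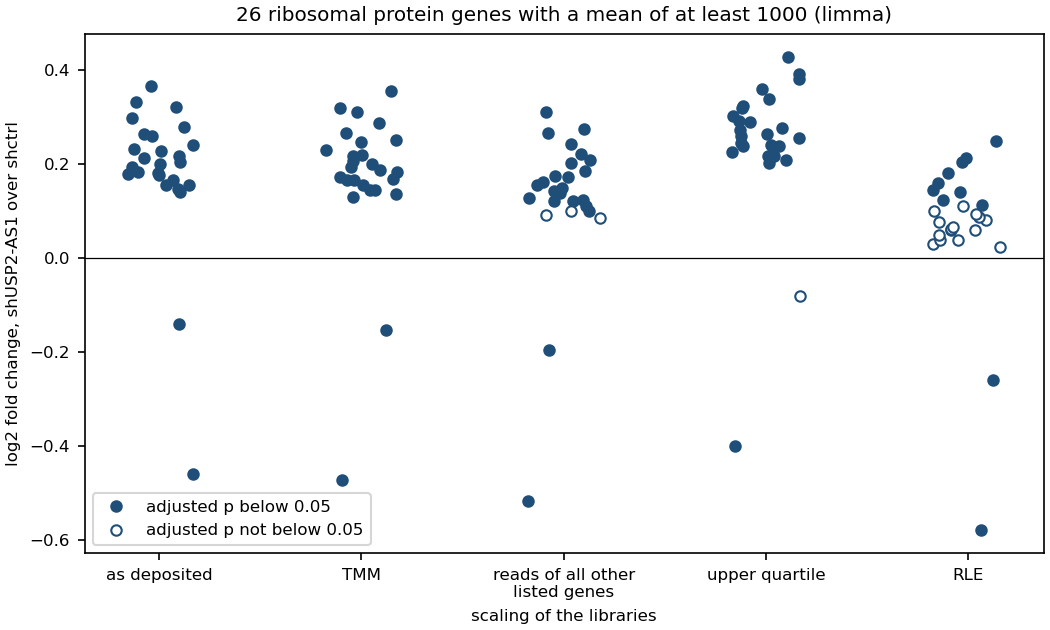
Log2 fold change (y axis) of the 26 core ribosomal protein genes with a mean normalized count of at least 1000 under 5 scalings of the libraries (x axis), with filled points for an adjusted p below 0.05 and open points for the rest. The genes keep their order and their side of 0, while the whole group shifts, and 9 of the 24 genes above 0 are filled under RLE.

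The 6 lower members were RPL39L, RPS9, RPL17, RPL7L1, RPS26 and RPL8. By the rule of the study, an adjusted p below 0.05 and a change of at least 2-fold, RPL39L and RPS9 were lower and no member was higher, against 13.5% lower and 16.1% higher among all genes tested.

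Both paralogs fell. RPL39L (ENSG00000163923, chr3:187120948-187180908, minus strand) is a paralog of RPL39, a protein of the exit tunnel, and is used mainly in male germ cells and in some cancer lines. Its normalized read counts were 310 and 336 in shctrl and 117 and 136 in shUSP2-AS1, with a log2 fold change of −1.35 (SE 0.13, adjusted p = 3.57e-08). The knockdown libraries were well below the controls. RPL39 itself was not listed.

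RPL7L1 (ENSG00000146223, chr6:42879616-42889925, plus strand) is a paralog of RPL7 that acts in assembly of the large subunit. It had 2730 and 2745 normalized reads in shctrl and 1450 and 1501 in shUSP2-AS1, with a log2 fold change of −0.89 (SE 0.06, adjusted p = 1.06e-10). Its replicates were close to each other, and it had the smallest adjusted p of the 30 members.

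Of the core genes with a mean normalized count of at least 1000, RPS26 and RPL8 were lower. RPS26 (ENSG00000197728, chr12:56041351-56044697, plus strand) is a small-subunit protein near the mRNA exit. It had 3305 and 3283 normalized reads in shctrl and 2313 and 2478 in shUSP2-AS1, with a log2 fold change of −0.46 (SE 0.05, adjusted p = 4.22e-07), and it stayed lower under each of the scalings. RPL8, a large-subunit protein next to the peptidyl transferase centre, had 32341 and 30183 against 27961 and 28733, a log2 fold change of −0.14 (adjusted p = 0.0156). The fall of RPL8 was within reach of the scaling, since under upper quartile scaling its adjusted p was 0.136. With the replicate number as a block its adjusted p was 0.0635.

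RPS9 and RPL17 were the other core genes that fell. They were the 2 core members with a mean normalized count below 1000, and the 2 least abundant members per kb of the deposited length. RPS9 (ENSG00000170889, chr19:54200809-54249003, plus strand), a small-subunit protein that binds early to 18S rRNA, had 104 and 80 reads in shctrl and 39 and 54 in shUSP2-AS1. Its normalized counts were 100 and 87.9 against 41.0 and 47.5, a log2 fold change of −1.07 (SE 0.22, adjusted p = 0.000157). This came to 16.1 normalized reads per kb of the deposited length, the lowest of the 30. Without the first control library or without the first knockdown library the change of RPS9 no longer reached 2-fold.

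RPL17 (ENSG00000265681, chr18:49488453-49492523, minus strand), a large-subunit protein at the mouth of the exit tunnel, had 244 and 265 normalized reads in shctrl and 114 and 158 in shUSP2-AS1. It fell by 0.92 log2 units (SE 0.15, adjusted p = 2.55e-05), and the knockdown replicates differed by 0.48 log2 units. At 79.2 normalized reads per kb of the deposited length it was second lowest. Of the 614 bases of its canonical transcript in GENCODE release 44, 595 (96.9%) are shared on the same strand with the readthrough gene RPL17-C18orf32, so reads of RPL17 could be left out or divided between the genes. For RPS9 the annotation shows an overlap of only 2.4% of exon bases. The values of RPL17 are uncertain for this reason, and why RPS9 was counted so low was not tested.

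Related genes outside the rule gave both directions. FAU, which encodes RPS30 fused to a ubiquitin-like protein, had 4102 and 3771 normalized reads in shctrl and 3270 and 3401 in shUSP2-AS1 (log2 fold change −0.24, adjusted p = 0.0005). It fell while most members rose, and its groups did not overlap.

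Of 10 ribosomal protein paralogs, 4 were listed, RPL39L, RPL7L1, RPL36AL and RPS27L. RPL36AL, a paralog of RPL36A, had 2198 and 2162 normalized reads in shctrl and 1824 and 1924 in shUSP2-AS1 (log2 fold change −0.22, adjusted p = 0.00128). RPS27L, a paralog of RPS27 and a target of p53, had 3313 and 2801 against 4466 and 4781 (log2 fold change 0.60, adjusted p = 1.95e-07). It was the only one of the 4 that rose, and the change of its parent RPS27 was 0.26.

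Pseudogenes of ribosomal proteins mostly shared the direction of the members. Of 16 listed, 14 were higher and 2, RPS18P12 and RPL32P3, were lower, with a median log2 fold change of 0.30. Processed pseudogenes are copies of the messenger, so reads of the parent gene can be assigned to them, and their counts are uncertain. The largest change was in RPL41P1, with 465 and 762 normalized reads in shctrl and 1370 and 1248 in shUSP2-AS1 (log2 fold change 1.13, adjusted p = 8.39e-07). RPL13AP20 had 32.9 and 37.4 against 59.9 and 96.8 (1.10, adjusted p = 0.000706), and RPL23AP82 had 182 and 170 against 326 and 371 (0.98, adjusted p = 6.31e-07). The parents of RPL41P1 and RPL23AP82 were not listed.

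The parent was listed for 8 of the 16 pseudogenes, and 7 of these 8 had the sign of the parent. All listed parents were themselves higher, and RPL13A and RPL10 were each counted repeatedly. The agreement therefore only restates that 7 of these 8 pseudogenes were higher. RPL13AP5 rose by 0.24 log2 units beside 0.23 for RPL13A, and RPS28P7 by 0.26 beside 0.20 for RPS28. RPL10P16 rose by 0.48 beside 0.22 for RPL10. RPL32P3, an unprocessed pseudogene, had 215 and 198 normalized reads in shctrl and 116 and 126 in shUSP2-AS1, with a log2 fold change of −0.77 against 0.20 for RPL32.

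Other parts of the translation machinery were followed with gene lists. Translation factors and other genes whose messengers carry a TOP tract did not move in 1 direction. Of 18 such genes 11 were listed, 4 higher and 7 lower, with a median log2 fold change of −0.23. The 3 largest changes were falls. NPM1, a nucleolar chaperone of ribosome assembly, had 17404 and 16902 normalized reads in shctrl and 8542 and 9277 in shUSP2-AS1 (log2 fold change −0.95, adjusted p = 1.72e-11). HNRNPA1, a splicing factor, had 14587 and 14389 against 8902 and 9596 (−0.65, adjusted p = 1.86e-09), and EIF3A, a subunit of initiation factor eIF3, had 9121 and 9586 against 6157 and 6073 (−0.61, adjusted p = 2.48e-09).

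The 4 higher genes of this list, named after their values were seen, were TPT1, EEF1A1, EEF2 and EIF4B. EEF1A1, which brings aminoacyl-tRNA to the ribosome, had 116651 and 111494 normalized reads in shctrl and 137689 and 147445 in shUSP2-AS1, with a log2 fold change of 0.32. TPT1, a TOP messenger encoding a growth-related protein, had 6796 and 5904 against 8882 and 9970, a log2 fold change of 0.57. EEF2, the translocation factor, and EIF4B, an initiation factor, had log2 fold changes of 0.18 and 0.17. Under RLE scaling 2 of the 4 passed the threshold.

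The list for control of translation, with mTORC1, genes of S6 kinase symbol, eIF4E and the La-related proteins, was also mixed. Of its 36 genes 18 were listed, 8 higher and 10 lower (median −0.21). SESN3, a stress-induced inhibitor of mTORC1, had 102 and 104 normalized reads in shctrl and 307 and 290 in shUSP2-AS1 (log2 fold change 1.52, adjusted p = 9.77e-09). RPS6KA5, on the list by its S6 kinase symbol only, encodes the kinase MSK1. It had 149 and 167 against 76.8 and 69.6 (−1.10, adjusted p = 1.03e-05), which is not read here as a change in translation control. PDCD4, an inhibitor of eIF4A, had 584 and 555 against 1090 and 1082 (0.93, adjusted p = 1.99e-09). LARP1, which binds the TOP tract and was singled out after its values were seen, had 8780 and 8971 against 6367 and 6196 (−0.50, adjusted p = 2.87e-08).

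Most listed factors that chaperone ribosomal proteins and mature the subunits fell. Of 29 such genes 24 were listed, 3 higher and 21 lower, with a median log2 fold change of −0.73. TSR1, which acts in maturation of the 40S subunit, had 2798 and 2910 normalized reads in shctrl and 1143 and 1121 in shUSP2-AS1 (log2 fold change −1.33, adjusted p = 7.50e-13). GTPBP4, a GTPase of 60S assembly, had 2553 and 2625 against 1175 and 1243 (−1.10, adjusted p = 1.34e-11). TSR2, the chaperone of RPS26, had 845 and 802 against 405 and 432 (−0.98, adjusted p = 5.66e-09). Of the 26 core members with a mean normalized count of at least 1000, 2 were lower, the client RPS26 and RPL8. Whether the falls of TSR2 and RPS26 are linked was not tested.

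The 3 higher genes of this list were RIOK3, a kinase of the pre-40S particle, and SBDS and EFL1, which together release EIF6 from the new 60S subunit, with log2 fold changes of 0.75, 0.59 and 0.36. These 3 were named after their values were seen. The difference between the assembly list and the members was not tested.

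Proteins of the mitochondrial ribosome, a separate family encoded in the nucleus, were lower without exception among those listed. All 33 fell, by log2 fold changes of −1.21 to −0.23 with a median of −0.53. MRPS10 had 641 and 651 normalized reads in shctrl and 287 and 271 in shUSP2-AS1 (log2 fold change −1.21, adjusted p = 1.47e-09). MRPS26 had 1759 and 1580 against 779 and 901 (−0.99, adjusted p = 1.83e-09), and MRPL55 had 513 and 540 against 267 and 299 (−0.89, adjusted p = 1.97e-07). The signs of the 33 genes were the same under all 4 scalings. This follows from the scalings, which shift all genes nearly alike and by less than the smallest of these falls. The cytosolic and mitochondrial families therefore lay on opposite sides of 0 by their medians, and the difference between the lists was not tested.

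**Figure D4:**
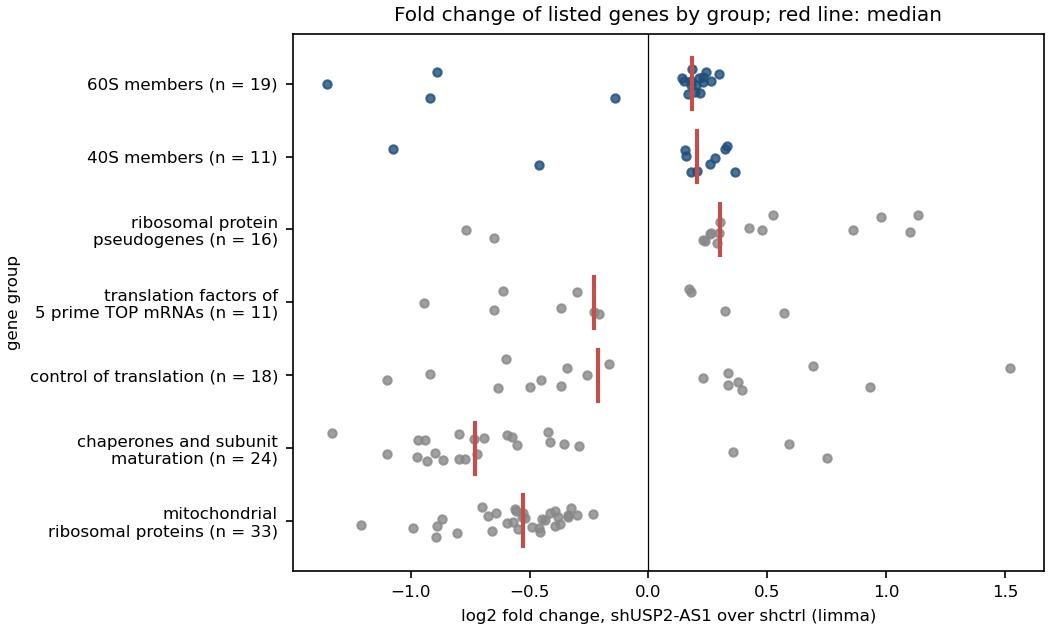
Log2 fold change of shUSP2-AS1 over shctrl (x axis) of the listed genes of 7 groups (rows), with 1 point per gene and the median as a red line. Most ribosomal protein genes (blue) form a narrow band between 0.14 and 0.37, while all 33 mitochondrial ribosomal protein genes and 21 of the 24 chaperone and maturation genes lie below 0.

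Promoters of the 26 members with an entry were searched on both strands for other motifs over 300 bases, 250 before and 50 after the start. The motif CCGGAAG, bound by ETS-family factors, was found in 34.6% of members, in 36.8% of the core genes not listed and in 12.2% of all 27303 genes. AAGATGGC, bound by YY1, was found in 11.5% of members and 3.52% of all genes, and CACGTG, the E-box that c-Myc and other factors bind, in 15.4% (4 members) and 8.78%. Among the core genes not listed, CACGTG was found in 2.63%. Over the 100 bases before the start alone, CACGTG was found in 3.85% of members and 4.25% of all genes. GGGCGG, bound by SP1, was found in 13 of the 26 members and in 48.3% of all genes. A match describes the letters in the window and does not show that a factor is bound there.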

How the data were processed

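A549 RNA-seq libraries, 2 per group, were compared. Per the submitters' processing notes, reads were processed with HISAT2 (2.0.5), featureCounts (1.5.0-p3) and DESeq2 (1.20.0) on hg38. The authors deposited 1 normalized signal value for each gene in each library, made by dividing reads by the size factor of the library. Their table also holds the log2 fold changes and p-values of the authors' comparison, which were not used, and gene lengths. The deposited adjusted p-value was read only to check that all 6828 listed genes lay below 0.05. Columns were assigned to groups by the contrast in their name and to replicates by their number.

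Here log2(value + 1) was fitted with limma (3.58.1, R 4.3.3; lmFit, eBayes with trend) for the 6812 genes with a mean of at least 10, with Benjamini-Hochberg adjustment over all of them. Fold changes are on this log2(value + 1) scale. Whole reads were recovered for 100% of values (tolerance 0.01), 1 read being worth 0.966 and 1.10 in shctrl and 1.05 and 0.88 in shUSP2-AS1, and were given to edgeR (4.0.16) and DESeq2 (1.42.0) as alternatives. Members had 39 to 60706 reads per library. The fit was also run on simulated reads in which most genes were unchanged. That setting differs from this table, so it does not show how the fit behaves on genes selected by the contrast. Replicates differed by more than sampling noise (chi-square per degree of freedom 3.73 and 3.83).

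The members and lists were chosen with earlier results of these data known. Values per library are given for the 8 lowest and 8 highest members, the 5 most abundant per kb, RPL11 and RPS19, all listed paralogs, all members past the rule of the study and the 3 largest changes of each other list. Other named pseudogenes and list members were named after their values were seen. The values of 1 core list gene outside the rule are not reported here. Annotation came from GENCODE release 44, which held all 30 members, and promoters from RefSeq, which held 26.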

Additional observations from a re-analysis of the deposited data

How the results depend on the processing

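No member changed sign under any of 15 other settings, but many of these could hardly have changed one. The other filters and the replicate block leave the estimate of each gene as it was. The median of all genes tested still changed sign, to −0.1625, with at least 10 reads required in every library. A scaling shifts all genes nearly alike. The median shift per gene was largest under RLE, −0.1178, and was smaller than the smallest change of a member, −0.14 for RPL8. Of 450 member and setting pairs 395 kept their side of the threshold and 55 lost it, and none reversed. Under RLE scaling and under DESeq2 with its own size factors, 9 instead of 24 members were higher, 4 instead of 2 passed the rule of the study, and the median log2 fold change was 0.0707 and 0.0740 instead of 0.19. These 2 settings moved the median of all genes tested by −0.12. TMM, edgeR, DESeq2 given the deposited size factors, the pseudocount of 0.1 and both other filters lost no member. Tested against a fold change of 2, 0 members passed. For these counts the shares of all genes passing under the same setting are not reported here, so they describe no property of the family. Leaving out each library in turn gave 14 to 24 higher members, with the fewest without the second shUSP2-AS1 library, 1 to 3 by the rule of the study, medians of 0.14 to 0.25 and a share difference of 0.146 to 0.311 percentage points. With mitochondrially encoded genes left out of the total the difference was 0.286. Among core members with a mean of at least 1000, a choice made after seeing the data, 24 were higher and 2 lower. With the replicate number as a block, 23 members were higher and 5 lower, and RPL8 (adjusted p = 0.0635) and RPL4 (0.0719) were lost. Across all genes, the difference of the first from the second library in shctrl was not correlated with that in shUSP2-AS1 (−0.04). Across the members the correlation was 0.394. It does not mean that same-numbered libraries moved together, since most members were higher in the first shctrl library and in the second shUSP2-AS1 library. The numbers were not taken as pairs. Over 100 bases before the start, CACGTG was found in 1 member instead of 4, AAGATGGC in 0 instead of 3 and GGGCGG in 8 instead of 13. Adjustment over all genes the authors tested was planned and not run. All scalings used listed genes alone, since other genes were not analysed here, and with 2 libraries per group the smaller rises rest on the scaling chosen.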
